A study of Mus musculus with 10 samples.

Results

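The transcripts described here encode 9 proteins of kidney magnesium handling. They were chosen by name from a list of transporters, channels, a hormone and regulators of magnesium reabsorption (Trpm6, Trpm7, Pvalb, Cnnm2, Cnnm4, Egf, Fxyd2, Slc41a1 and Slc41a3), and all 9 of 9 were among the 30896 genes measured, each by 1 array feature. Kidney RNA came from mice given the immunosuppressant cyclosporin A (CsA), which inhibits calcineurin, at 60 mg/kg under the skin each day for 7 days (5 arrays), and from mice given the solvent cremophore, called vehicle here (5 arrays). All mice had a C57BL/6 background, were 10 to 12 weeks old, ate low-sodium chow (0.05% sodium) and belonged to a line in which doxycycline induces loss of Vhl in cells that express Pax8, the tubule epithelium. The labels do not say whether that deletion had been induced in these animals. The series was designed to find what precedes the kidney injury of longer CsA dosing.

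Magnesium that is filtered in the glomerulus is taken back mostly between cells in the thick ascending limb, through claudin pores. The distal convoluted tubule adjusts the rest by a route through the cells, with entry by the TRPM6 and TRPM7 channel proteins at the luminal side and exit on the blood side, for which CNNM and SLC41 proteins are candidates. Epidermal growth factor (EGF) from the same part of the nephron raises TRPM6 activity. Magnesium loss in urine and low blood magnesium are known adverse effects of calcineurin inhibitors in patients.

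Before the results, 1 property of the arrays has to be given. CsA replicates 1 and 2 carried female RNA, in which Xist, the transcript of X inactivation, read 9.21 and 9.15 and the average over 4 Y-linked genes was 3.90 and 4.03, while in the other 8 arrays Xist lay at or under 4.82 and that average at or above 6.91. All vehicle arrays were male, so differences and counts of called genes are given for all 10 arrays and for the 8 male arrays (3 CsA, 5 vehicle). Values are log2 expression as deposited, on which a difference of 1 is 2-fold, and differences are CsA minus vehicle. The median log2 value of an array lay between 5.14 and 5.21, and the correlation between arrays between 0.976 and 0.989. The number of arrays limits the precision. Whether each array stands for its own animal is not stated in the labels, so the p-values cover only the spread between these samples.

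Promoter sequences are shown for Trpm6, Pvalb and Cnnm2, because these 3 members were lower under CsA. Each is the 250 bases before the RefSeq start of the gene in mouse build GRCm38.p6, read 5′ to 3′ on the gene's strand. Capitals mark GGAAA or its complement on the other strand, the core of the site that NFAT proteins bind. NFAT proteins are the factors that calcineurin activates, and calcineurin is the target of CsA.
Trpm6 (chr19:18749480-18749729, + strand): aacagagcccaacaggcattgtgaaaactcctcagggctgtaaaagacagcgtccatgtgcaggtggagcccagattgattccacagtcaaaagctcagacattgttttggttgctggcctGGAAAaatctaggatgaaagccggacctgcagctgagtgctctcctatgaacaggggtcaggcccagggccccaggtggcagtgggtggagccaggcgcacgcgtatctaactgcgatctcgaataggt
Pvalb, the farther upstream of 2 listed starts (chr15:78206401-78206650, - strand): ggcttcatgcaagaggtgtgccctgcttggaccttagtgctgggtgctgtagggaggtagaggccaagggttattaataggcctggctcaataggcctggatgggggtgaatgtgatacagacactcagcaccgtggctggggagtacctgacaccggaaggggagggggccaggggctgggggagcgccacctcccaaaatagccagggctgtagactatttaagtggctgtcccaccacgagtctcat
Cnnm2 (chr19:46761359-46761608, + strand): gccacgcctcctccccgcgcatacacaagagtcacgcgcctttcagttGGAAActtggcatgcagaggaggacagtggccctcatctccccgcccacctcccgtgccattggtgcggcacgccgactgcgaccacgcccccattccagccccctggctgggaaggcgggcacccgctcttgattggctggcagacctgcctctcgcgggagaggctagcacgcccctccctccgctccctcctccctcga
GGAAA occurred once before the start of Trpm6 and once before that of Cnnm2, on the gene's strand, beginning at bases -129 and -202. It was not found in the Pvalb window. Members that did not pass the test held it as well, with 2 matches before Trpm7, 3 before Slc41a1 and 1 before each of the 2 listed starts of Egf, while Cnnm4 and Slc41a3 had 0. Among all 32851 RefSeq promoter windows of the same length, 55.6% held it on either strand, so a match here is common. The other motifs searched on both strands were TGANTCA (AP-1, 6.75% of windows), TGACGTCA (the cyclic AMP response element, 1.55%), AGGTCA (a nuclear receptor core, 14.02%) and TATAAA (the TATA box, 12.4%). None of these 4 was in the 3 windows shown. Of the 9 members, 8 had a RefSeq window, all but Fxyd2.

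CsA kidneys had less RNA for the magnesium channel Trpm6, the distal tubule calcium buffer Pvalb and the basolateral magnesium protein Cnnm2, and more for Fxyd2, a small subunit of the sodium pump. Pvalb was 2.69-fold lower, Trpm6 2.09-fold lower, Cnnm2 1.43-fold lower and Fxyd2 1.24-fold higher. The other 5 members did not pass the test, among them Egf and Trpm7. By limma with Benjamini-Hochberg adjustment over all 30896 genes, 3 of the 9 members fell and 1 rose, where 3.54% of all genes were called lower and 2.95% higher at an adjusted p under 0.05. In the male arrays the same 4 members were called in the same directions, with 1.64% of all genes called lower and 1.53% higher. The groups did not overlap for these 4 members, while 5.05% of all genes were lower and 4.04% higher without overlap. The median difference of the 9 members was -0.06, and that of all genes 0.01. Every member was brighter than at least 63.1% of genes. With only genes above the median signal tested, 1808 were called lower and 1476 higher, against 1093 and 911 of all 30896. The shares over all genes are thus a low background for the members. The members were also chosen with earlier results of these data known, so their count is no independent evidence of an excess. In whole kidney RNA, fewer cells of a type and less RNA per cell cannot be told apart.

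**Figure D1:**
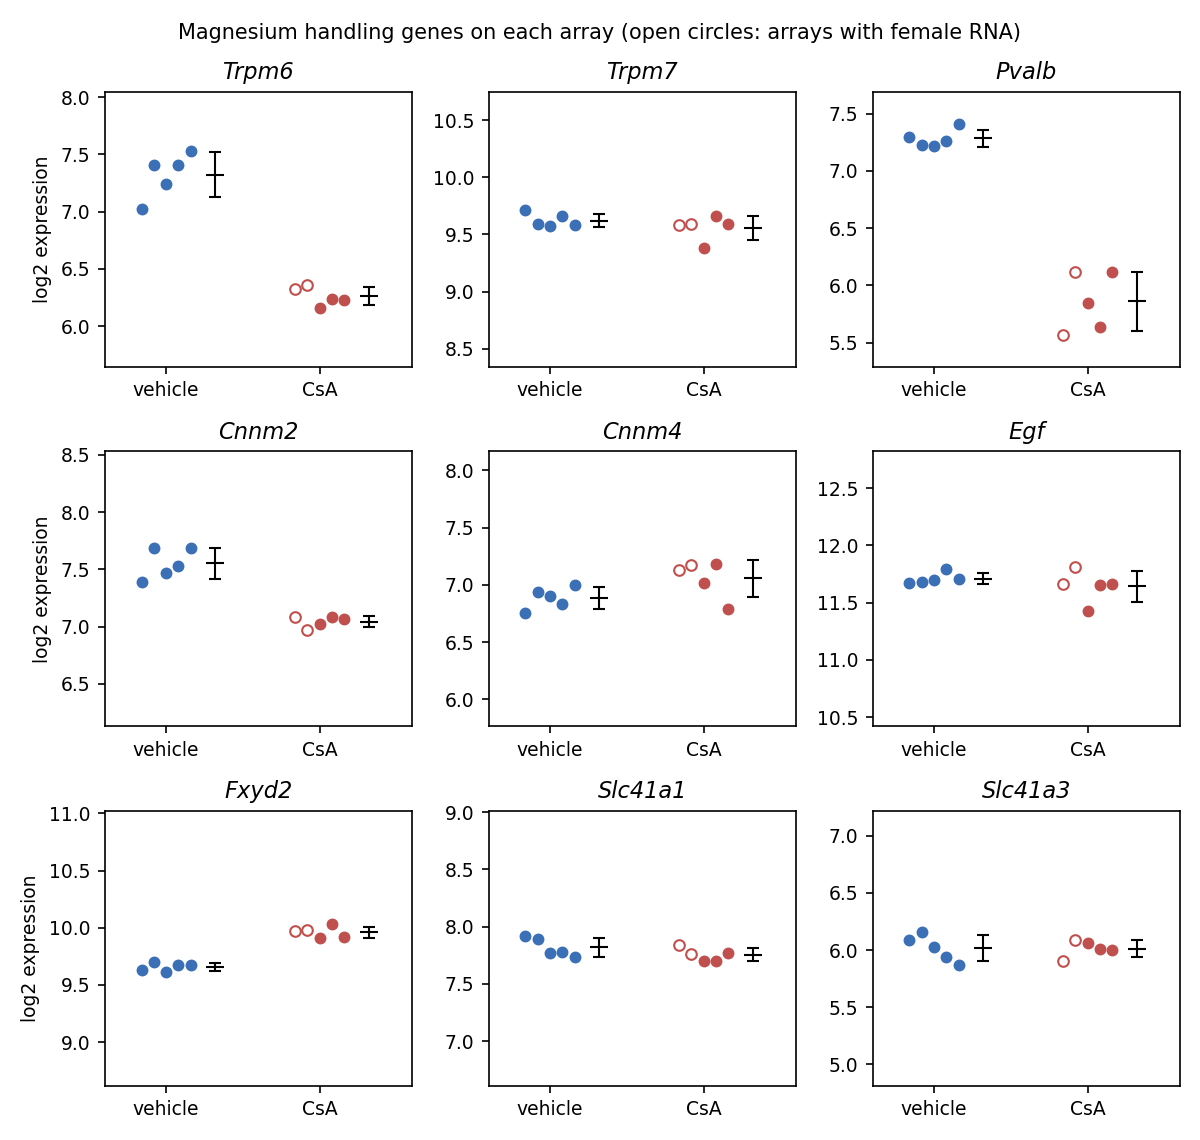
Log2 expression of each of the 9 genes (vertical axes, all of the same span) in vehicle (blue) and CsA (red) arrays, 1 point per array, with the mean and SD of each group (n = 5) beside the points and open circles for the 2 CsA arrays with female RNA. The groups stand apart for Trpm6, Pvalb and Cnnm2, lower in CsA, and for Fxyd2, higher in CsA.

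Trpm6 encodes the channel fused to a kinase through which magnesium enters cells of the distal convoluted tubule, and its loss in people causes low blood magnesium. Its feature (17358051) read 6.32, 6.36, 6.16, 6.24 and 6.23 in CsA replicates 1 to 5 and 7.02, 7.41, 7.24, 7.41 and 7.53 in vehicle replicates 1 to 5. Every CsA value lay below every vehicle value, with a gap of 0.66 between the groups, and the lowest vehicle value was that of replicate 1. The means were 6.26 ± 0.08 and 7.32 ± 0.20 (SD, n = 5 each), a difference of -1.06 ± 0.09 (SE) with limma adjusted p = 0.000168. In the male arrays the difference was -1.11 ± 0.11 (SE), with limma adjusted p = 0.00359. The 2 female CsA arrays held the highest Trpm6 values of the CsA group, 6.32 and 6.36. Ordered by difference, Trpm6 stood at rank 43 from the lowest among the 30896 genes.

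Trpm7, the broadly expressed paralogue of Trpm6 with the same channel and kinase parts, read 9.58, 9.59, 9.38, 9.66 and 9.59 in CsA and 9.71, 9.59, 9.57, 9.66 and 9.58 in vehicle arrays. The groups overlapped, with CsA replicate 3 below all the others. The difference was -0.06 (95% interval -0.21 to 0.09, limma adjusted p = 0.664), while the interval for Trpm6 was -1.26 to -0.86. In the male arrays Trpm7 differed by -0.08 (limma adjusted p = 0.650).

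Pvalb encodes parvalbumin, a calcium-binding protein found in the kidney mainly in the early distal convoluted tubule. Its feature (17318942) read 5.57, 6.12, 5.85, 5.64 and 6.12 in CsA and 7.30, 7.23, 7.22, 7.26 and 7.41 in vehicle arrays. The groups were 1.11 apart at their nearest values, and the CsA arrays were spread more widely than the vehicle arrays. The means were 5.86 ± 0.26 and 7.29 ± 0.08 (SD, n = 5 each), a difference of -1.43 ± 0.11 (SE) with limma adjusted p = 0.000168. It was -1.42 ± 0.11 (SE) in the male arrays (limma adjusted p = 0.00179). Pvalb had the largest difference of the 9 members in either direction and stood at rank 24 from the lowest among all genes. Parvalbumin is also a protein of fast skeletal muscle. Limma called none of 12 fast muscle genes such as Acta1, Ckm and Myh4, and 0 had an unadjusted p under 0.05. Their mean level was 4.97 to 5.14 in CsA and 4.90 to 5.09 in vehicle arrays, which overlapped.

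Cnnm2 encodes a basolateral membrane protein of distal tubule cells whose mutation in people causes magnesium loss. Its feature (17360097) read 7.08, 6.97, 7.02, 7.08 and 7.07 in CsA and 7.39, 7.69, 7.47, 7.53 and 7.69 in vehicle arrays. All CsA values were lower, by at least 0.31. The difference was -0.51 ± 0.07 (SE, limma adjusted p = 0.00227) over all arrays and -0.50 ± 0.09 (SE, limma adjusted p = 0.0200) in the male arrays. Cnnm4, a relative that exports magnesium from cells of the gut, read 7.13, 7.17, 7.02, 7.18 and 6.79 in CsA and 6.75, 6.94, 6.90, 6.83 and 7.00 in vehicle arrays. Its groups overlapped through CsA replicate 5, and the difference was 0.17 (95% interval -0.01 to 0.36, limma adjusted p = 0.277), or 0.11 in the male arrays (limma adjusted p = 0.584).

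Slc41a1 and Slc41a3 encode carriers proposed to exchange sodium for magnesium. Slc41a1 lay between 7.70 and 7.84 in CsA and between 7.73 and 7.92 in vehicle arrays, a difference of -0.06 (95% interval -0.20 to 0.08, limma adjusted p = 0.634). Slc41a3, whose transcript is enriched in the mouse distal convoluted tubule, lay between 5.90 and 6.09 in CsA and between 5.87 and 6.16 in vehicle arrays, a difference of -0.004 (95% interval -0.16 to 0.15, limma adjusted p = 0.985). For both genes the groups overlapped, and in the male arrays the differences were -0.09 and 0.01 (limma adjusted p = 0.535 and 0.965).

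Egf, the precursor of the hormone that stimulates TRPM6, was bright on every array. It read 11.66, 11.81, 11.43, 11.65 and 11.66 in CsA and 11.67, 11.68, 11.70, 11.79 and 11.71 in vehicle arrays. CsA replicate 2 was above and CsA replicate 3 below all vehicle arrays. The difference was -0.07 (95% interval -0.23 to 0.09, limma adjusted p = 0.654) over all arrays and -0.13 in the male arrays (limma adjusted p = 0.402). CsA replicate 3, which had the lowest Egf, Trpm6 and Trpm7 values, also had the highest mean of 12 tubular injury genes, 7.73 against 7.27 to 7.47 in the other CsA arrays. Havcr1 weighed heavily in that mean, at 8.31 there and 5.36 to 6.50 in the other CsA arrays. The mean without Havcr1 was not computed. Among the other members, Fxyd2 was also lowest in CsA replicate 3 (9.91), and Slc41a1 read 7.70 in CsA replicates 3 and 4. Pvalb and Slc41a3 were lowest in CsA replicate 1 (5.57 and 5.90), Cnnm2 in replicate 2 (6.97) and Cnnm4 in replicate 5 (6.79). The part of injury in the values of the members was not tested.

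Fxyd2 encodes the gamma subunit of the sodium pump, which is abundant in the thick ascending limb and distal tubule, and a dominant mutation of it in people causes magnesium loss. Its feature (17516784) read 9.97, 9.98, 9.91, 10.03 and 9.92 in CsA and 9.63, 9.70, 9.61, 9.67 and 9.67 in vehicle arrays. All CsA values were higher, by at least 0.21. It was the only member that rose, by 0.31 ± 0.06 (SE, limma adjusted p = 0.00904) over all arrays and 0.30 ± 0.07 (SE, limma adjusted p = 0.0437) in the male arrays. Among all genes it stood at rank 1403 from the highest.

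**Figure D2:**
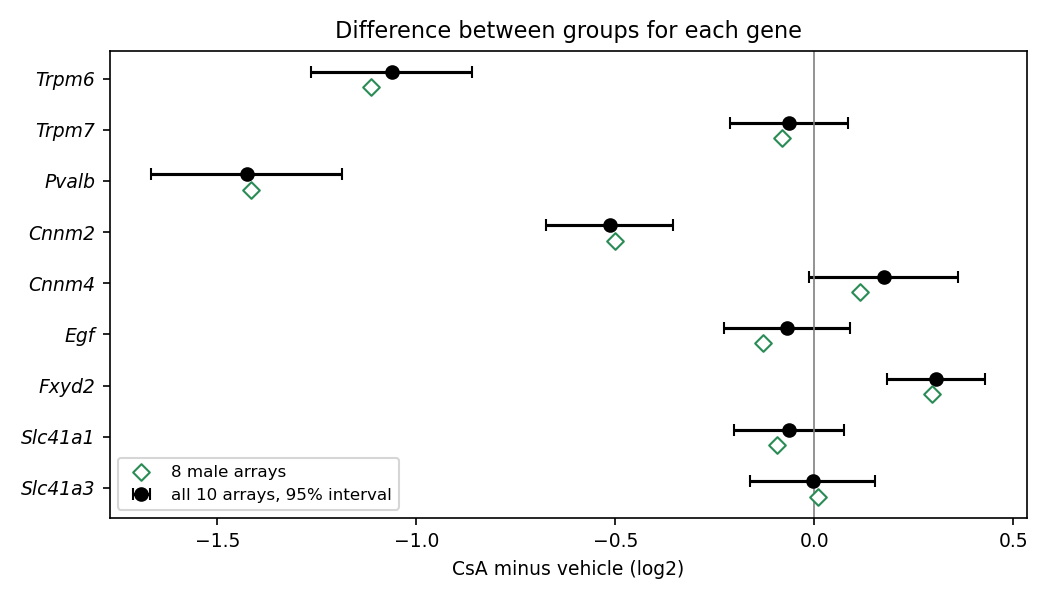
Difference between CsA and vehicle (horizontal axis, log2) for each of the 9 genes over all 10 arrays (filled circles, with the 95% interval of the limma fit) and over the 8 male arrays (open diamonds, no interval drawn). The intervals of Trpm6, Pvalb, Cnnm2 and Fxyd2 leave out 0, and the male values lie inside the intervals of all 9 genes.

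Trpm6 and Pvalb fell further than the gene of the main sodium transporter of the distal convoluted tubule, while 2 genes of distal calcium transport had larger differences than either, which was not tested within arrays. Calb1, which encodes the calcium buffer calbindin, differed by -2.12 (limma adjusted p = 9.18e-07, and -2.07 in the male arrays, 0.0002). Slc8a1, which encodes a sodium-calcium exchanger, differed by -1.89 (limma adjusted p = 6.28e-05, and -1.95 in the male arrays, 0.00179). They stood at ranks 9 and 15 from the lowest among all genes, ahead of Pvalb and Trpm6. Slc12a3, which encodes the sodium chloride cotransporter NCC and whose loss in people also causes magnesium loss, lay between 10.91 and 11.35 (median 11.15) in CsA and between 11.32 and 11.54 (median 11.41) in vehicle arrays. The groups overlapped, and its difference of -0.32 ± 0.09 (SE) missed the threshold over all arrays (limma adjusted p = 0.0669) and passed it in the male arrays (-0.43, limma adjusted p = 0.0306). It also passed without CsA replicate 2 (limma adjusted p = 0.0382), and with either filter on dim genes, eBayes with trend and robust or array weights (between 0.0219 and 0.0435). On each array the log2 value of Slc12a3 was subtracted from that of Trpm6. The result was -4.91, -4.99, -4.76, -4.92 and -4.68 in CsA and -4.48, -3.91, -4.13, -4.00 and -4.01 in vehicle arrays. Only the change of this value between groups can be read, since features differ in brightness, and it was lower in all 5 CsA arrays than in any vehicle array. On this scale Trpm6 fell by 0.74 more than Slc12a3 (exact permutation test, 2-sided, p = 0.00794, and 0.0106 after Benjamini-Hochberg adjustment over the 4 pairs compared). That p is the smallest that 5 arrays against 5 can give. The pair was chosen with earlier results of these data known, so the p is no independent support. Slc12a3 (10.91 to 11.54) was far brighter than Trpm6 (6.16 to 7.53). Very bright features understate differences, and the part of this in the 0.74 was not tested.

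For Pvalb minus Slc12a3 the values were -5.65 to -4.79 in CsA and -4.20 to -4.09 in vehicle arrays. Pvalb fell by 1.11 more than Slc12a3 on this scale, with the same exact permutation p = 0.00794 and adjusted p = 0.0106, and again no overlap. The limit of unlike brightness holds here too. Trpm6 minus Trpm7 lay between -3.42 and -3.22 in CsA and between -2.69 and -2.06 in vehicle arrays. The channel pair differed in its change by -0.999, with exact permutation p = 0.00794 and adjusted p = 0.0106. Slc41a3 minus Slc41a1 overlapped between the groups and changed by 0.06 (exact permutation p = 0.373). In the male arrays the 3 former differences were -0.68, -0.98 and -1.03, each with an exact permutation adjusted p of 0.0476, which comes from the smallest p that 3 arrays against 5 can give. Slc41a3 minus Slc41a1 changed by 0.10 there (exact permutation adjusted p = 0.107). The pairs were chosen with earlier results of these data known, so these p-values are no independent support for unequal falls.

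**Figure D3:**
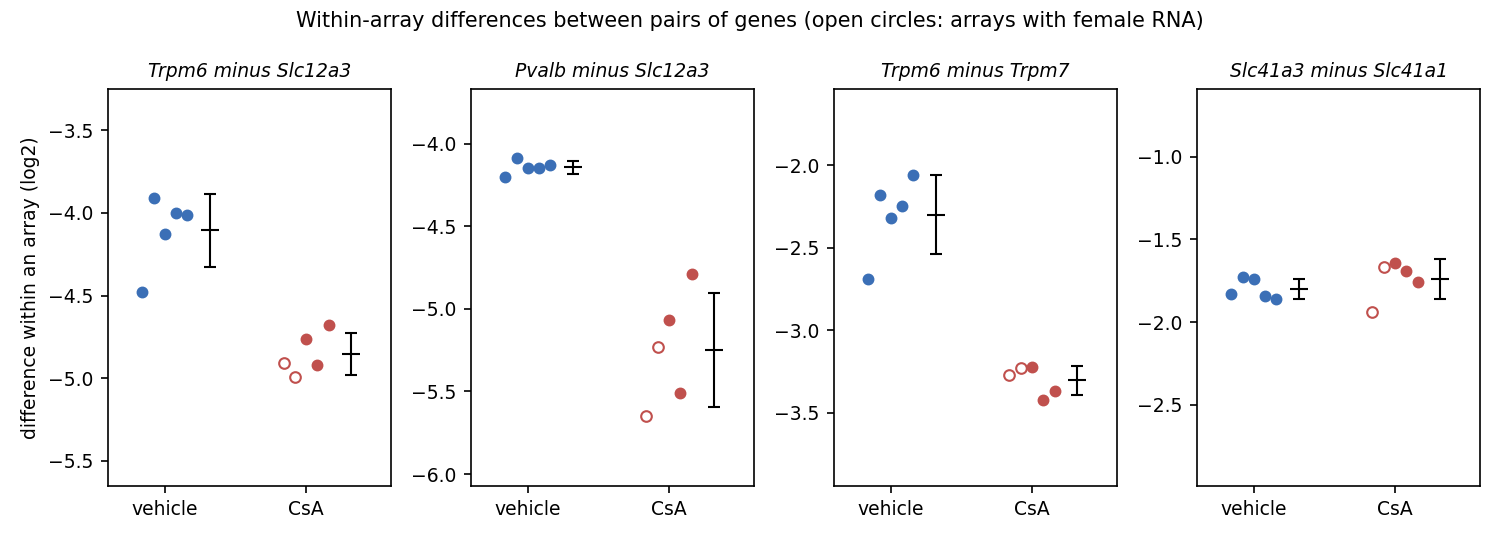
Difference in log2 value between 2 genes on the same array (vertical axes, all of the same span) in vehicle (blue) and CsA (red) arrays, with mean and SD (n = 5) and open circles for arrays with female RNA. The 5 CsA arrays lie below all vehicle arrays for Trpm6 minus Slc12a3, Pvalb minus Slc12a3 and Trpm6 minus Trpm7, and the groups overlap for Slc41a3 minus Slc41a1.

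Outside the 9 members, 44 further genes of magnesium transport and its control were listed and all were measured. They were listed with earlier results of these data known, so their counts are no independent evidence of an excess. Of the 44 genes, 7 fell and 7 rose over all arrays, against 3.54% and 2.95% of all genes, and 30 did not pass. Their median difference was -0.05. In the male arrays 3 fell and 1 rose, against 1.64% and 1.53% of all genes. Leaving out CsA replicate 1 left 4 falls, and leaving out vehicle replicate 1, 3 or 4 left 2, 1 and 3. The rises numbered 4 when CsA replicate 2 or vehicle replicate 1, 2 or 3 was left out. The differences of the 14 called genes were small, between -0.57 and 0.42. With only genes above the median signal tested, 10 of these magnesium genes fell and 7 rose, beside 1808 and 1476 of all genes tested there. The shares over all genes are thus a low background for bright genes.

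Among 21 other transporters, tight junction pores and partner proteins, 4 fell and 2 rose. Slc41a2, the remaining relative of the SLC41 carriers, read 6.65, 6.05, 6.66, 6.87 and 6.63 in CsA and 7.26, 7.06, 7.16, 7.22 and 7.00 in vehicle arrays. It was lower in every CsA array, most in replicate 2, with a difference of -0.57 ± 0.13 (SE, limma adjusted p = 0.0235) and of -0.42 in the male arrays (limma adjusted p = 0.0375). It missed the threshold with a term for the female arrays (limma adjusted p = 0.108) and without vehicle replicate 1, 3 or 4 (0.0598, 0.0567 and 0.0572). The mitochondrial magnesium channel gene Mrs2 differed by -0.36. Nipa2 and Mmgt1, genes of proposed magnesium transporters, differed by -0.37 and -0.36. The groups did not overlap for any of the 3 (limma adjusted p = 0.0245, 0.0186 and 0.0198). None of these 3 passed in the male arrays (limma adjusted p = 0.124, 0.0732 and 0.0712). Leaving out 1 array also ended the call of Mrs2 (CsA replicates 1, 2 and 5 and vehicle replicates 1, 3 and 4, limma adjusted p between 0.0513 and 0.0671) and of Mmgt1 (vehicle replicates 1, 3 and 4, between 0.0517 and 0.0529). Without vehicle replicate 3, Nipa2 missed the threshold too (limma adjusted p = 0.0506). Of the CNNM relatives, Cnnm1 and Cnnm3 differed by -0.01 and 0.07 over all arrays and by 0.01 and -0.02 in the male arrays, and did not pass in either. Ptp4a3, a phosphatase that binds CNNM proteins, was 0.37 higher (limma adjusted p = 0.0207, and 0.0586 in the male arrays or 0.0541 without vehicle replicate 3).

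Cldn16 and Cldn19 encode pore-forming claudins of the thick ascending limb. Cldn10, another claudin gene listed for this segment, differed by -0.03 (limma adjusted p = 0.854, and -0.01 in the male arrays, 0.954). Cldn16 lay between 7.06 and 7.38 in CsA and between 7.07 and 7.30 in vehicle arrays (difference 0.10, 95% interval -0.07 to 0.27, limma adjusted p = 0.532, and 0.03 in the male arrays, 0.896). Cldn19 read 9.15, 9.08, 9.10, 8.99 and 8.89 in CsA and 8.80, 8.77, 8.76, 8.70 and 8.33 in vehicle arrays. It rose by 0.37 (limma adjusted p = 0.0400) but not in the male arrays (0.32, limma adjusted p = 0.167). The call was lost without CsA replicate 1, 2, 3 or 4 or without vehicle replicate 1, 2, 3 or 4 (limma adjusted p between 0.0536 and 0.0873).

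Of 8 genes that act on TRPM6 or on EGF signalling to it, 1 fell and 2 rose. Rack1, whose protein binds TRPM6 and inhibits it, rose by 0.42 (limma adjusted p = 0.00983), with 7.37 to 7.64 in CsA and 6.92 to 7.23 in vehicle arrays, and missed the threshold in the male arrays (0.36, limma adjusted p = 0.0588). These values are from the brighter of its 2 features. The other feature (17262174) read 7.71 to 8.36 in CsA and 6.05 to 7.86 in vehicle arrays, which overlapped and were spread more widely, and it differed by 1.29. With the mean of both features the difference was 0.855 (limma adjusted p = 0.00773), so the size of the change of Rack1 depends on the feature read. Akt1, a kinase of growth factor signalling, rose by 0.32 (limma adjusted p = 0.00813) and also in the male arrays (0.33, limma adjusted p = 0.0311). Its CsA arrays lay between 8.41 and 8.55 and its vehicle arrays between 8.11 and 8.20. Egfr, the EGF receptor, differed by -0.13 (95% interval -0.28 to 0.01, limma adjusted p = 0.288), and by -0.12 in the male arrays (limma adjusted p = 0.388). Esr1, the estrogen receptor, read 6.29 and 6.17 in the female CsA arrays, 6.71 to 6.90 in the male CsA arrays and 6.94 to 7.30 in vehicle arrays. It was called over all arrays (-0.56, limma adjusted p = 0.0381) and not in the male arrays (-0.32, limma adjusted p = 0.105) or without any of CsA replicates 1, 2 and 5 and vehicle replicates 1 to 4 (between 0.0548 and 0.0929).

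In the list of 15 genes of inherited magnesium loss or of the distal potential that magnesium uptake needs, 2 fell and 3 rose. Rragd encodes RagD, a GTPase of nutrient signalling whose mutation in people causes tubular magnesium loss. It read 8.57, 8.63, 8.55, 8.55 and 8.50 in CsA and 9.11, 9.05, 8.90, 9.04 and 8.96 in vehicle arrays. The groups did not overlap, and Rragd fell by 0.45 on the log2 scale (limma adjusted p = 0.00214) and by 0.48 in the male arrays (limma adjusted p = 0.0124). The call held under every alternative run. Kcnj16, a subunit of the basolateral potassium channel, differed by -0.33 (limma adjusted p = 0.0430, and 0.164 in the male arrays), and missed the threshold without any of CsA replicates 1 to 4 and vehicle replicates 1 to 3 (between 0.0632 and 0.105) and with arrays centred on their medians (0.0507). Its partner Kcnj10 lay between 8.76 and 9.04 in CsA and between 8.62 and 8.95 in vehicle arrays (difference 0.07, limma adjusted p = 0.666, and -0.005 in the male arrays, 0.981). The chloride channel subunit gene Bsnd and the calcium-sensing receptor gene Casr were 0.40 and 0.38 higher (limma adjusted p = 0.0165 and 0.0228), and neither passed in the male arrays (limma adjusted p = 0.0865 and 0.0983). The call of Casr was also lost when CsA replicate 2 or vehicle replicate 1, 2 or 4 was left out (between 0.0518 and 0.0588). The 2 female CsA arrays held the 2 highest values of Bsnd and of Casr.

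**Figure D4:**
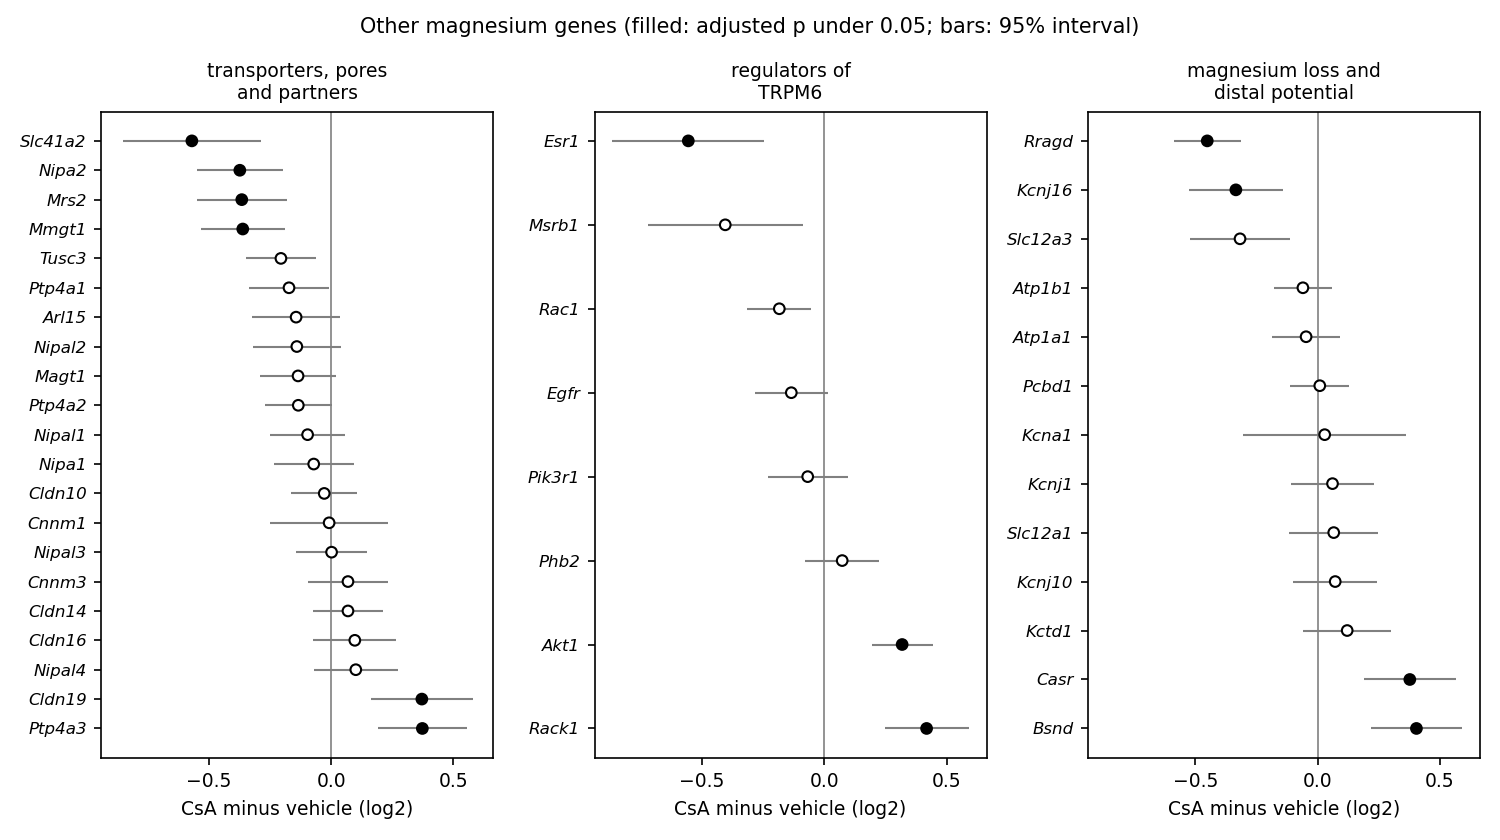
Difference between CsA and vehicle (horizontal axes, log2, all 10 arrays) for 42 of the 44 other magnesium genes in 3 lists, with 95% intervals of the limma fit; filled circles mark an adjusted p under 0.05. Of the 13 filled genes 7 lie below 0 and 6 above it, with Slc41a2, Esr1 and Rragd at the lower end.

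Markers of kidney cell types were read beside these values. In the distal convoluted and connecting tubule list 5 of 12 genes fell and 0 rose (6 and 0 in the male arrays), among them Calb1 and Slc8a1 of distal calcium transport, Kl and the kinase Wnk1. Its mean level was 8.59 to 8.71 in CsA and 9.08 to 9.30 in vehicle arrays. Calb1 and Slc8a1 weighed most in that gap, and the median difference of the list was -0.29 (-0.37 in the male arrays). Stk39 and S100g differed by -0.015 and -0.10, and Emx1 and Tmem72 by 0.11 and 0.19, none of them called. In the thick ascending limb list 4 of 11 rose, Cldn19, Bsnd and Casr among them, and 0 passed in the male arrays. There 5 had an unadjusted p under 0.05, and these included Ptger3, which was lower (-0.22, limma adjusted p = 0.200). The median difference of the list was 0.07 over all arrays and 0.03 in the male arrays. Slc12a1 and Umod differed by 0.066 and 0.055 over all arrays and by -0.04 and 0.03 in the male arrays. The mean level of this list was 9.237 to 9.456 in CsA and 9.144 to 9.224 in vehicle arrays. Every CsA array, the 3 male ones included, lay above every vehicle array, though the nearest arrays of the groups were close. The 2 highest means were those of the female CsA arrays. Limma called none of 9 proximal tubule genes (2 with an unadjusted p under 0.05), whose mean level was 11.26 to 11.36 in CsA and 11.28 to 11.35 in vehicle arrays. Of 11 collecting duct genes 1 rose, Atp6v1b1 of intercalated cells, also in the male arrays. Macrophage and injury genes moved with the group, with 6 of 9 and 8 of 12 higher over all arrays and 6 and 5 in the male arrays. The mean of the macrophage list was 6.87 to 7.07 in CsA and 6.29 to 6.52 in vehicle arrays, and that of the injury list 7.27 to 7.73 and 6.72 to 6.89. Limma called 0 of 10 podocyte and endothelial, 0 of 7 T cell, 0 of 7 fibroblast and 0 of 5 red cell genes (3, 0, 2 and 2 with an unadjusted p under 0.05), and 1 of 7 adipocyte genes (Retn). In the male arrays it called 2 of 5 red cell genes higher (Hba-a2 by 0.67 and Hbb-bt by 1.21, limma adjusted p = 0.0424 and 0.00503) and 2 of 7 adipocyte genes higher (Cfd by 0.68 and Retn by 0.96, limma adjusted p = 0.0312 and 0.0169). The median difference of the adipocyte list was 0.27 over all arrays and 0.66 in the male arrays, and that of the red cell list 0.05 and 0.17. The mean levels of both lists overlapped between groups, at 5.53 to 6.15 in CsA and 5.30 to 5.90 in vehicle arrays for the adipocyte list and at 6.02 to 6.91 and 6.19 to 6.70 for the red cell list. The counts of the proximal tubule, podocyte and endothelial, T cell, fibroblast and fast muscle lists were 0 in the male arrays too. The part of any of these cell types in the changes of the members was not tested.

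**Figure D5:**
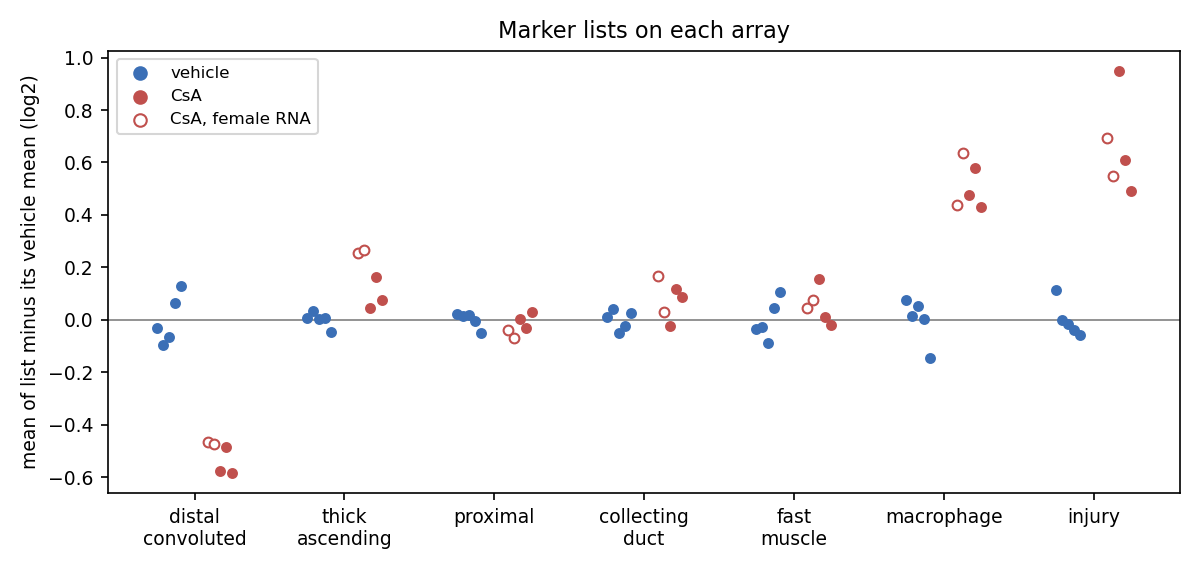
Mean log2 level of each marker list on each array minus the mean of the 5 vehicle arrays for that list (vertical axis) for 7 lists, with vehicle in blue, CsA in red and open circles for the 2 CsA arrays with female RNA. CsA arrays lie below all vehicle arrays for the distal convoluted tubule list and above them for the thick ascending limb, macrophage and injury lists, while the proximal tubule, collecting duct and fast muscle lists overlap.

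The genes whose profiles over the 10 arrays were most like that of Trpm6 were Cwh43, Ttpa (the alpha-tocopherol transfer protein), Lrrc52 (a subunit of potassium channels), Sfrp1 (a secreted inhibitor of Wnt signalling) and Vegfd (a lymphatic growth factor). After each gene's mean was subtracted, their root mean square differences from Trpm6 were 0.15, 0.16, 0.17, 0.20 and 0.22 log2 units, among 3499 genes with a range at least 0.5 times that of Trpm6. For Pvalb they were Slc22a19, Trpm6, Dnase1, Zpld1 and Lrrc52, at 0.24, 0.27, 0.29, 0.30 and 0.33 among 1165 genes. Trpm6 itself was thus among the genes most like Pvalb, and Lrrc52 was near both. All of these genes were lower in CsA, by 0.81 to 1.23 on the log2 scale, as the measure requires genes of a similar difference.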

How the data were processed

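For each of 10 kidney samples, 200 ng of total RNA was amplified, labelled and read on 1 Affymetrix array (Mouse Gene ST 2.0), per the labels' protocols. The authors deposited a log2 expression value for every feature and array. RMA and Partek 6.4 are named in the submitters' processing notes, without order or settings, and the genome build and annotation are not given in the sources used here. The 2 deposited tables were identical (largest difference 0), so the planned comparison of tables was not run. Detection calls, scan dates and slides were not used here. The sample titles number all CsA samples before all vehicle samples, so any effect of that order cannot be told apart from that of CsA. Whether the samples were handled in that order is not known here.

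Groups came from the source descriptions. Of 41345 features, 8874 carried no symbol. Current symbols were taken from RefSeq (GRCm38.p6), and the feature with the highest mean stood for its gene, which gave 30896 genes. The groups were compared with limma 3.58.1 (R 4.3.3) by a 2-sided moderated test without covariates, with Benjamini-Hochberg adjustment over all genes and a threshold of 0.05. The procedure was tested on simulated arrays. Within-array differences between genes were tested by exact permutation. Female RNA was called where Xist exceeded the Y-linked mean.

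The members, gene lists, pairs and alternatives were chosen with earlier results of these data known. Genes named were all members, every called gene of the 3 further magnesium lists and a few fixed genes, up to 4 genes per marker list with the smallest adjusted p, and the 5 most similar profiles of Trpm6 and of Pvalb, without model or clone names. The fast muscle genes, Cnnm1, Cnnm3, Cldn10, Slc12a1, Umod, Ptger3, Stk39, S100g, Emx1, Tmem72 and Havcr1 were named outside that rule. Of 164 listed genes, 161 were measured. Of the genes the rule named, 2 are not reported here, and they enter only the counts and list means.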

Additional observations from a re-analysis of the deposited data

Results flagged for a closer look

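Among 60 groups of 5 arrays examined for an array apart from the others (26 genes and 4 within-array differences), 3 had one, where chance gives about 5%. The item concerning a member was Trpm7 in CsA replicate 3, at 9.38 against 9.58 for the next array. Slc41a2 was at 6.05 in CsA replicate 2, against 6.63 for the next. Cldn19 in vehicle replicate 5 was at 8.33, against 8.70 for the next.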

How the results depend on the processing

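All 4 called members kept their direction and stayed past the threshold under the 20 alternatives run, namely 2 filters on dim genes, centring, quantile normalisation again, eBayes with trend and robust, array weights, mean of features, all features, males only, a term for the female arrays and leaving out each array. The count of members was 3 lower and 1 higher in each, also as the range over single arrays left out (3 to 3 and 1 to 1). Each member had 1 feature, so the filters, eBayes with trend and robust, mean of features and all features could not move its difference. Males only and the female term gave the same differences, because all female arrays were CsA arrays. The log2 difference of Trpm6 ranged from -1.14 to -1.01 and that of Pvalb from -1.49 to -1.35. Slc41a3, never past the threshold, turned from -0.004 to 0.010 in males only and with the female term, and to 0.025, 0.014 and 0.031 without CsA replicate 1, vehicle replicate 1 and vehicle replicate 2, within a range of -0.041 to 0.031 over single arrays left out. Kcnj10 turned to -0.005 in males only and with the female term.

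Counts over all genes were 1476 higher and 1808 lower among genes above the median signal, 473 and 507 in males only, and 501 and 509 with the female term, from 911 and 1093. Leaving out 1 array gave 560 to 883 higher and 574 to 1044 lower, with 604 and 625 without CsA replicate 2, 597 and 582, 560 and 574, and 604 and 641 without vehicle replicates 2, 3 and 4, and 613 lower without vehicle replicate 1. Of the other magnesium genes, 1 was higher and 3 lower in males only, 2 and 2 with the female term, and 4 to 7 and 1 to 7 when 1 array was left out. Of 153 values for 17 of these genes under settings other than leaving out an array, 21 lost the call, 6 gained it and 2 changed sign. The within-array differences kept their direction (-0.84 to -0.70 for Trpm6 minus Slc12a3, -1.22 to -1.01 for Pvalb minus Slc12a3 and -1.096 to -0.938 for Trpm6 minus Trpm7 with 1 array left out). Their adjusted p of 0.0212 with 1 array left out and 0.0476 in males only comes from the smallest p that so few arrays can give, and says nothing of stability. Slc41a3 minus Slc41a1 ranged from 0.034 to 0.11 and passed without CsA replicate 1 (0.11, exact permutation adjusted p = 0.0476). No paired analysis was possible because the labels give the groups no shared replicate numbers. Dim and very bright features understate differences, and their signal over background was not used here.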
